A study of Taeniopygia guttata with 21 samples.

Results

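HOXD3, HOXD4 and HOXD11 are genes of the HOXD cluster on zebra finch chromosome 7. They were taken as every row of the deposited table whose symbol was one of these names, which gave 3 of 18202 rows, 3 of the 5 HOXD rows with a symbol on that chromosome and 3 of the 19 HOX rows with a symbol. RNA was sequenced from the skin of wild-type zebra finch (Taeniopygia guttata) embryos at stage HH28, in a series built to find molecules confined to future colour patches of the plumage. Dorsal skin was sampled at 3 locations (anterior, saddle and posterior) and ventral skin at 4, named anterior, ventral-most, flank and posterior. Each location gave 3 libraries, 21 in all, numbered 3, 8 and 11. All groups share genotype, stage and tissue, and the labels name no transgene, deletion or treatment. The labels do not say whether an embryo gave 1 or several libraries, so each p-value measures the spread between these libraries.

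HOX genes encode transcription factors with a homeodomain and lie in clusters whose order along the chromosome parallels the order of their expression along the body axis. Genes at the low-numbered end of a cluster are first expressed furthest forward, and genes at the high-numbered end are restricted to the rear of the body and to the limbs and genital region. HOXD3 and HOXD4 belong to the low-numbered end and in the mouse are needed for the form of the first neck vertebrae. HOXD11, related to Abdominal-B of the fly, helps in the mouse to shape the sacral region and the forearm bones. Dermis of the back arises from somites, whereas ventral skin draws its dermis from lateral plate mesoderm.

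The 3 genes are listed on the plus strand in the order HOXD11, HOXD4 and HOXD3. HOXD11 (GSZG0012872) spans 17038300 to 17039721 of chromosome 7, HOXD4 (GSZG0012874) spans 17080632 to 17082440 and HOXD3 (GSZG0012627) spans 17097108 to 17099235, in the coordinates of the deposited table. The genome build is not given in the sources used here. HOXD4 and HOXD3 lie 14.7 kb apart. HOXD11 and HOXD4 are separated by HOXD10 (17049377 to 17051492), which lies 9.65 kb from the former and 29.1 kb from the latter.

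Levels are the deposited normalised read counts, that is, reads per gene after scaling each library by its size factor. Since no transcript length was given, levels are compared between locations, and no gene's level is ranked against another gene's. Libraries held 12.9 to 23.0 M reads (M, mega; median 18.6 M). Differences are of mean log2(level + 1), with the standard error (SE) of a limma fit over all 21 libraries and 14005 genes that had a level of at least 10 in at least 3 libraries. All 3 HOXD genes passed that filter. A gene is called where the Benjamini-Hochberg adjusted p over all genes was below 0.05.

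All 3 genes differed among the 7 locations, in a table where 15.4% of genes did. The 3 genes were chosen with earlier results of these data known. Shares of all genes, here and below, are therefore a description and no test of the members as a set. The spread between the highest and the lowest location mean was 3.77 on the log2 scale for HOXD3 (adjusted p = 4.19e-06), 5.03 for HOXD4 (adjusted p = 1.43e-05) and 8.74 for HOXD11 (adjusted p = 1.52e-05). The low-numbered genes were highest at the front of the back. The high-numbered gene was detected at the rear of the back and in the flank, with few or no reads elsewhere.

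**Figure D1:**
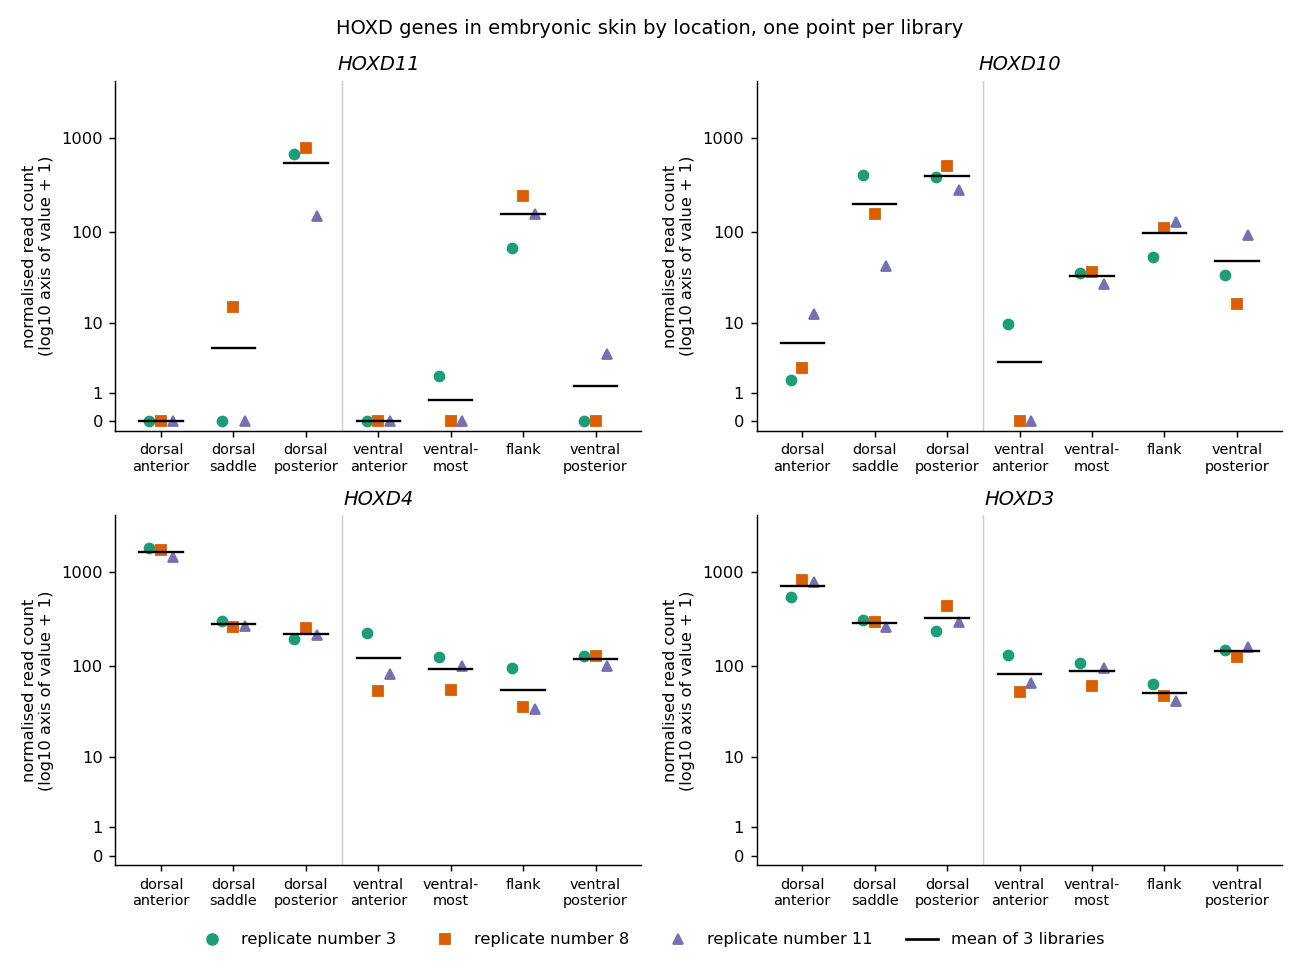
Level of HOXD11, HOXD10, HOXD4 and HOXD3 in each library by location (normalised read counts plus 1, log scale), 3 libraries per location. HOXD10 is a neighbour and not a member. HOXD3 and HOXD4 peak in dorsal anterior skin, and HOXD11 is at or near 0 in 5 of the 7 locations.

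HOXD3 was higher in dorsal skin. Its levels were 541, 830 and 783 in dorsal anterior replicates 3, 8 and 11 (mean 718 ± 155, SD, n = 3). They were 310, 300 and 265 in the saddle (291 ± 23.3, SD, n = 3) and 240, 441 and 297 in dorsal posterior skin (326 ± 104, SD, n = 3). Every dorsal anterior library stood above every other dorsal library, while saddle and posterior overlapped.

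Ventral levels of HOXD3 were lower. The 3 libraries held 132, 52.4 and 66.5 in ventral anterior skin (83.7 ± 42.7, SD, n = 3) and 108, 60.8 and 96.4 in ventral-most skin (88.3 ± 24.5, SD, n = 3). They held 63.9, 48.4 and 42.6 in the flank (51.6 ± 11, SD, n = 3) and 148, 127 and 160 in ventral posterior skin (145 ± 16.6, SD, n = 3). The highest ventral library (160) lay below the lowest dorsal one (240), so the 9 dorsal and 12 ventral libraries did not overlap. Such a separation was seen in 0.878% of all genes tested. The flank held the lowest location mean of HOXD3 and ventral posterior the highest on the ventral side.

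HOXD4 was dominated by a single location. Dorsal anterior libraries held 1787, 1724 and 1442 (1651 ± 184, SD, n = 3). The saddle held 304, 262 and 271 (279 ± 22, SD, n = 3) and dorsal posterior skin 194, 253 and 215 (221 ± 30.0, SD, n = 3). The lowest dorsal anterior library was thus far above the highest of the other 18, and both HOXD3 and HOXD4 had no overlap between dorsal anterior skin and all the other libraries, against 1.83% of all genes.

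On the ventral side HOXD4 held 228, 54.3 and 82.8 in anterior skin (122 ± 93.0, SD, n = 3) and 127, 56.3 and 101 in ventral-most skin (94.7 ± 35.7, SD, n = 3). It held 95.9, 36.3 and 34.5 in the flank (55.6 ± 34.9, SD, n = 3) and 129, 129 and 102 in posterior skin (120 ± 15.6, SD, n = 3). All 4 ventral locations overlapped with at least another one. Ventral anterior replicate 3 (228) reached into the dorsal range, whose lowest value was 194, so the sides were not fully separated for HOXD4.

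HOXD11 had another distribution. It held 676, 777 and 148 in dorsal posterior skin (534 ± 338, SD, n = 3) and 66.4, 243 and 154 in the flank (155 ± 88.3, SD, n = 3). No read was found in the 3 dorsal anterior or the 3 ventral anterior libraries, which allows a group level of up to 0.868 and 0.989 respectively (3 reads over the group, counting error only). The remaining 9 libraries were at 0 except saddle replicate 8 (15), ventral-most replicate 3 (2.0) and ventral posterior replicate 11 (4.1).

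In reads, HOXD11 had 1941 in dorsal posterior skin, 447 in the flank, 17 in the saddle, 4 in ventral posterior skin and 2 in ventral-most skin. Its mean level in dorsal posterior skin was 615-fold the limit of 3 reads over the group in dorsal anterior skin. It was 539-fold that limit in ventral anterior skin. Other ratios were taken from the reads pooled over a group and scaled by its pooled size factors. Against ventral posterior skin, at the same end of the body, this ratio was 381 (95% counting interval 148 to 1398). The flank stood 107-fold above ventral posterior skin (95% counting interval 41.3 to 393) and 236-fold above ventral-most skin (64.9 to 1953). These intervals cover counting error only, since the amplified libraries carry no molecular identifiers. Neither they nor the folds above include the spread between libraries. Dorsal posterior replicate 11 was the lowest of its group and flank replicate 3 the lowest of the other.

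The order of the locations was compared step by step, from the highest mean to the lowest. For HOXD3 it ran dorsal anterior, dorsal posterior, saddle, ventral posterior, ventral-most, ventral anterior and flank, and no neighbours in that order were told apart (adjusted p between 0.0782 and 1). With the replicate number as a block, the step from dorsal anterior to dorsal posterior passed (adjusted p = 0.0443). For HOXD4 dorsal anterior stood above the saddle, the next location (difference 2.56, SE 0.44, adjusted p = 0.00679, in a pair with 0.778% of all genes called), and none of the 5 later steps passed. This step was lost when any of the 3 replicate numbers was left out. For HOXD11 dorsal posterior and flank did not differ beyond their spread (1.65, SE 1.0, adjusted p = 0.475), and the saddle stood below the flank (difference -5.76, adjusted p = 0.0019, in a pair with 6.01% of all genes called; lost without replicate number 3 or 11).

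Of all 21 pairs of locations, 11 differed for HOXD3, 9 for HOXD4 and 10 for HOXD11. Over the same pairs, between 0.157% and 9.73% of all genes were called. Each of the 4 dorsal anterior against ventral pairs was called for HOXD3 and for HOXD4. Dorsal posterior against ventral posterior skin was called for neither (limma, 1.12, adjusted p = 0.116 for HOXD3 and 0.878, adjusted p = 0.517 for HOXD4). Nor was saddle against ventral posterior skin. HOXD4 was also not called for saddle or dorsal posterior against ventral anterior skin, nor for dorsal posterior against ventral-most skin. With the replicate block the numbers of pairs called were 12, 12 and 10. For HOXD4 the block added both saddle pairs just named and dorsal posterior against ventral-most skin. Without replicate number 8 or 11 the numbers fell to 6 for HOXD3 and to 4 for HOXD4. For HOXD11 they were 5 without number 3, and 6 without number 8 and with DESeq2.

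The first division of the design is the body side. HOXD3 and HOXD4 were higher dorsally, which makes 2 of 3 members, while 17.2% of all genes were called (9.31% higher and 7.89% lower). HOXD3 averaged 445 ± 226 in dorsal libraries and 92.2 ± 41.9 in ventral ones (SD, n = 9 and 12; difference 2.25, SE 0.18, adjusted p = 2.38e-07). HOXD4 averaged 717 ± 707 and 97.9 ± 53.3 (SD, n = 9 and 12; difference 2.43, SE 0.24, adjusted p = 2.59e-06). Both calls held when each library or replicate number was left out, with differences of 1.96 to 2.55 for HOXD3 and of 2.17 to 2.76 for HOXD4. Not every dorsal against ventral pair of locations was called. Dorsal posterior against ventral posterior skin was called for neither gene (1.12 for HOXD3 and 0.878 for HOXD4).

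HOXD11 did not pass the test of body side. It averaged 180 ± 315 in dorsal and 39.1 ± 79.1 in ventral libraries (SD, n = 9 and 12; difference 1.26, SE 0.54, adjusted p = 0.125). A single location on each side carried nearly all of its reads. Without the flank the difference was 2.92 (adjusted p = 0.00376), and with 5 in place of 1 added to the level it was 1.05 (adjusted p = 0.0347).

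Markers of the epidermis moved with body side. Of all genes, 9.31% were called higher dorsally and 7.89% lower. Of 10 epidermis markers listed, 6 were in the table and 6 of 6 were called higher dorsally, with a median difference of 1.22 against 0.00 for all genes. Their summed level ran from 18800 to 38905 in dorsal libraries and from 7531 to 18463 in ventral ones, and it was highest in dorsal anterior skin (30904 to 38905). Of 9 dermis markers 6 were in the table, 3 were called lower dorsally and none higher (1 higher with the replicate block), with sums of 133494 to 215242 dorsally and 135218 to 271253 ventrally. No marker of either list was at 0. The part of these levels in the HOXD3 and HOXD4 differences was not tested. In bulk skin, fewer cells of a type and less RNA per cell cannot be told apart.

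**Figure D2:**
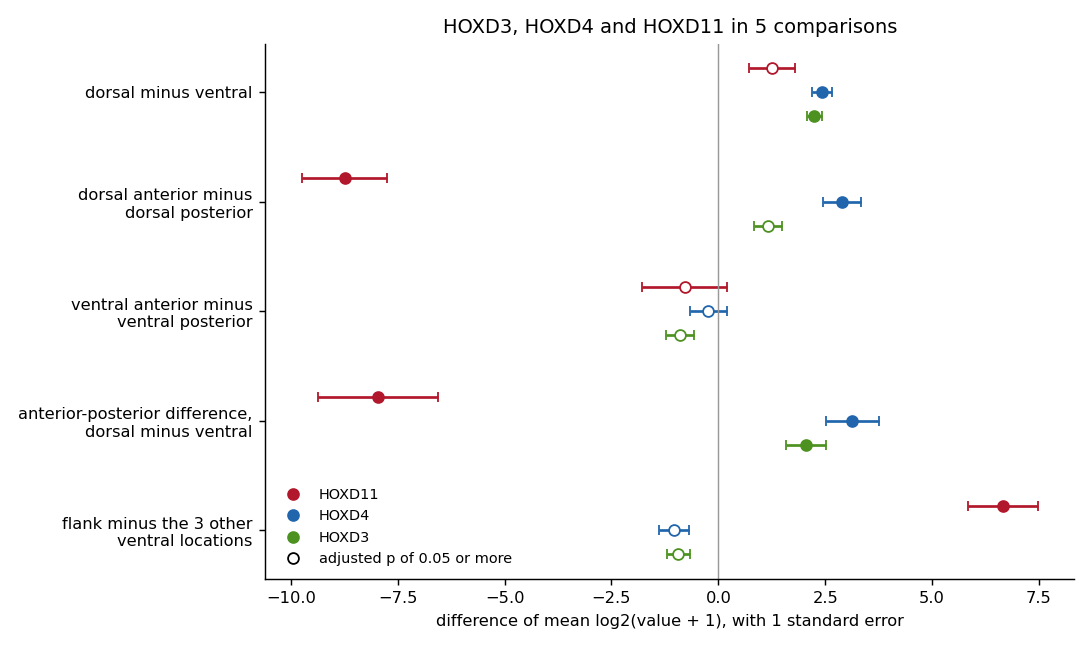
Differences of mean log2(level + 1) with SE for HOXD3, HOXD4 and HOXD11 in the planned comparisons. HOXD3 and HOXD4 share the dorsal direction and HOXD11 stands apart in the posterior back and in the flank.

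Along the back, HOXD4 and HOXD11 went opposite ways. From dorsal posterior to dorsal anterior skin HOXD4 rose by 2.90 (SE 0.44, adjusted p = 0.00116) and HOXD11 fell by 8.74 on the log2 scale (SE 1.0, adjusted p = 0.000129). Thus 2 of 3 members were called, where 2.27% of all genes were (0.757% higher and 1.51% lower). HOXD3 differed by 1.16 (SE 0.33, adjusted p = 0.0782) without a call. Both the fit with the replicate block (adjusted p = 0.0443) and DESeq2 (adjusted p = 0.0144) gave a call.

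In all 3 genes the dorsal anterior and dorsal posterior libraries did not overlap, which was the case for 16.2% of all genes. The call of HOXD4 was lost without replicate number 8 (2.97, adjusted p = 0.0718) or 11 (2.98, adjusted p = 0.0603). Epidermal markers moved along the back as well, with sums of 30904 to 38905 in anterior and 18800 to 21668 in posterior skin, and 1 of 6 was called higher anteriorly (2 with the replicate block). Their part in the result was not tested.

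Along the belly, 0 of 3 members were called by limma between anterior and posterior skin, against 1.76% of all genes (0.921% higher and 0.835% lower). At an unadjusted p below 0.05 there was 1 (HOXD3), and edgeR, DESeq2 and the replicate block each called 0. The difference was -0.89 for HOXD3 (SE 0.33, adjusted p = 0.249), with a lower mean at the front, and it was called when ventral anterior replicate 3 was left out (-1.28, adjusted p = 0.0392). It was -0.23 for HOXD4 (SE 0.44, adjusted p = 0.996) and -0.78 for HOXD11 (SE 1.0, adjusted p = 0.968). The anterior and posterior libraries overlapped in all 3 genes, where 13.1% of all genes showed no overlap. The sign for HOXD4 turned without replicate number 8 (0.26), with edgeR (0.028) and with DESeq2 (0.024). Epidermis markers summed to 9101 to 13398 in ventral anterior and 14469 to 18463 in ventral posterior skin. Of 6 tested, 1 was called lower anteriorly (0 with edgeR). Their part in these differences was not tested.

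The anterior-posterior difference was then compared between the sides. Back minus belly, it was positive for HOXD3 (2.05, SE 0.46, adjusted p = 0.0438) and for HOXD4 (3.13, SE 0.62, adjusted p = 0.022), and negative for HOXD11 (-7.96, SE 1.41, adjusted p = 0.0105). All 3 members were thus called, 2 higher and 1 lower, against 0.828% of all genes (0.35% higher and 0.478% lower). For HOXD3 the values on the back (1.16) and on the belly (-0.89) had opposite signs, and neither was called. HOXD13, a gene of the cluster that is not a member and had 50 reads in 4 libraries, was not called (limma, -3.08, adjusted p = 0.463). An entry without a symbol between HOXD13 and HOXD11, also not a member, was called lower (limma, -6.67, adjusted p = 0.029). That call was lost when any of the 3 replicate numbers was left out, and without several single libraries. Because HOXD11 was at 0 in every anterior library, its value equals ventral posterior minus dorsal posterior skin. Of 6 epidermis markers tested, 1 was called higher for this side-by-axis difference, with a median of 0.85 against 0.00 for all genes. Their part in the HOXD values was not tested.

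These calls depended on the test and on the libraries. HOXD3 was not called by edgeR (1.94, adjusted p = 0.0623), and HOXD11 neither by edgeR (-8.39, adjusted p = 1) nor by DESeq2 (-8.77, adjusted p = 0.26). HOXD3 kept its call in 4 of 24 fits with a library or replicate number left out, which were those without dorsal posterior 8, ventral anterior 3, ventral-most 8 or flank 3. HOXD4 lost it in 10 of 24, without each replicate number and without dorsal anterior 3 or 8, dorsal posterior 3, ventral anterior 8 or 11, or ventral posterior 3 or 8, and HOXD11 in 3 of 24, without each replicate number.

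The flank was set against the other 3 ventral locations. HOXD11 was higher there (6.66, SE 0.81, adjusted p = 0.000208), as 1 of 3 members called, in a comparison in which 3.05% of all genes were called (1.61% higher and 1.44% lower). Its lowest flank library (66.4) stood above the highest of the 9 others (4.1), and 2.96% of all genes showed no overlap here. The call held in every fit with a library or replicate number left out (6.02 to 7.21).

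HOXD3 and HOXD4 had their lowest means in the flank. The difference was -0.94 for HOXD3 (SE 0.27, adjusted p = 0.0673; 0.0376 with the replicate block) and -1.04 for HOXD4 (SE 0.36, adjusted p = 0.156; 0.0438 with the block). The HOXD3 libraries overlapped, since flank replicate 3 (63.9) exceeded ventral anterior replicate 8 (52.4) and ventral-most replicate 8 (60.8).

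Markers of limb bud and of neurons were examined beside the flank values. Of 11 limb bud markers 6 were in the table, with sums of 735 to 1537 in the flank, 2470 to 3877 in ventral posterior, 724 to 815 in ventral anterior and 445 to 624 in ventral-most skin. In dorsal posterior skin, where HOXD11 was also high, the sum was 18.8 to 76.3. HAND2, of the lateral plate, held 448 to 1041 in the flank and 0 to 0.784 in dorsal posterior skin. It was also present in ventral anterior (323 to 553), ventral-most (193 to 342) and ventral posterior skin (227 to 365). FGF10 held 213 to 337 in the flank, 241 to 249 in ventral-most and 3.92 to 23.0 in dorsal posterior skin. In the flank SHH held 3.02 to 188, PITX1 1.01 to 83.6 and FGF8 0 to 5.08. LHX9, another limb bud marker, was at 0 in the flank, the saddle and ventral-most skin. In ventral posterior skin PITX1 held 1866 to 2111 and LHX9 6.27 to 1587. Of 5 limb bud markers tested, limma called 0 in the flank, where 3.05% of all genes were called. At an unadjusted p below 0.05 there were 3, edgeR called 0 and DESeq2 called 1.

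Of 12 neuron markers 7 were in the table, and their sum was 1636 to 3898 in the flank against 278 to 1325 in the other ventral libraries and 397 to 553 in dorsal posterior skin. Most of the flank sum was STMN2, a tubulin-binding protein of growing axons, at 1224 to 3359. NEFM went the other way, at 0 to 4.06 in the flank and 136 to 426 in ventral anterior skin. ELAVL4 held 403 to 779 in the flank and 408 to 688 in ventral anterior skin. Of 3 neuron markers tested, 1 was called higher and 1 lower in the flank, where 3.05% of all genes were called. SOX2, of neural progenitors, was at 0 in all 21 libraries. NKX2-2 was at 0 in the flank and the saddle and at most 2.74 elsewhere. The part of these markers in the flank values of the HOXD genes was not tested.

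**Figure D3:**
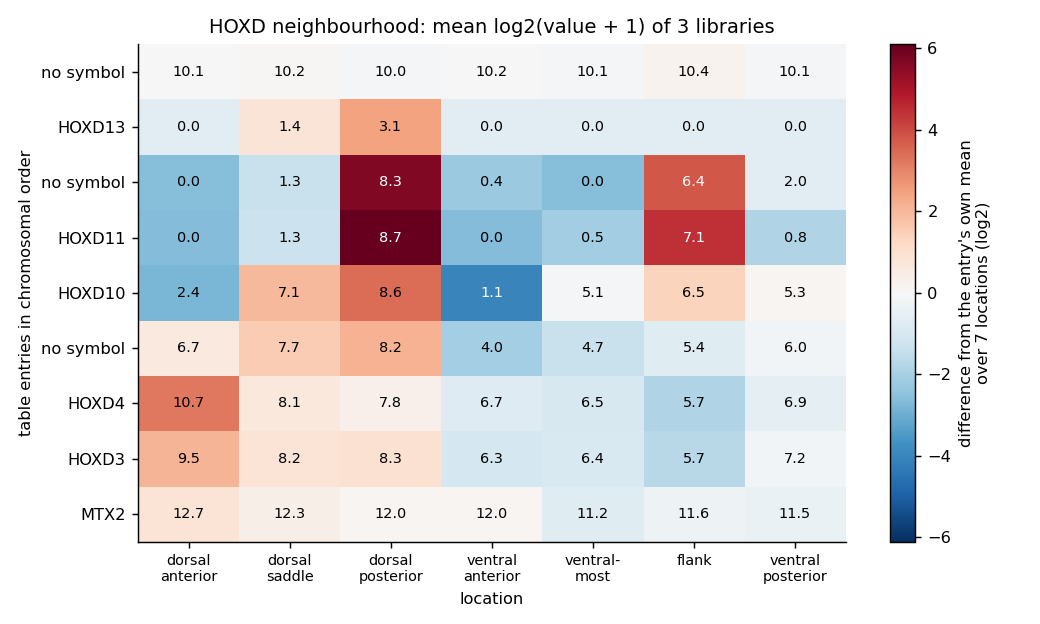
Mean log2(level + 1) of the entries of the HOXD neighbourhood at each location as the difference from the entry's own mean over locations, in chromosome order. The upper entries (HOXD13, HOXD11, HOXD10) are raised in dorsal posterior skin and the lower ones (HOXD4, HOXD3) in dorsal anterior skin.

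The neighbours of the 3 genes filled in the cluster order. Within 300 kb the table listed 13 entries, of which 6 had a symbol. HOXD13 (17028838 to 17029086), the gene of the terminal group, had 50 reads in 4 libraries, at levels of 11.6, 10.2 and 3.28 in dorsal posterior replicates 3, 8 and 11 and 17.7 in saddle replicate 8. It was at 0 in all 12 ventral libraries, the flank included, and dorsal posterior against anterior skin did not pass (3.08 on the log2 scale, adjusted p = 0.122). Between the sides it differed by 1.5 (adjusted p = 0.0546; 0.0338 with the replicate block).

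An entry without a symbol between HOXD13 and HOXD11 (17031441 to 17032219) had the distribution of HOXD11. It averaged 450 ± 330 in dorsal posterior skin and 100 ± 75.0 in the flank, and between 0 and 4.42 elsewhere (means, n = 3). Like HOXD11 it was called lower in dorsal anterior than in dorsal posterior skin (-8.28, adjusted p = 0.000163) and higher in the flank than in the other ventral locations (5.63, adjusted p = 0.000696; lost without replicate number 8). Saddle replicate 8 was the only saddle library with reads in this entry (13.3), in HOXD11 (15) and in HOXD13 (17.7). The same library held the saddle's highest levels of HAND2 (11.5), WT1 (54.8) and MYOD1 (53.9), markers of other tissues. The highest saddle levels of SHH (50.9) and PITX1 (239) were in other libraries. The part of other tissue in the HOXD reads of this library was not tested.

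HOXD10, a gene of the lumbar region and limbs, stood between the patterns. It averaged 5.70 ± 6.08 in dorsal anterior, 199 ± 182 in saddle and 390 ± 112 in dorsal posterior skin (SD, n = 3). On the belly it averaged 3.24 ± 5.62 in anterior, 33.5 ± 5.35 in ventral-most, 96.6 ± 37.9 in flank and 48.1 ± 40.2 in posterior skin (SD, n = 3). It was called lower anteriorly on the back (-6.20, adjusted p = 0.000881; lost without replicate number 8). It was also called lower anteriorly on the belly (-4.14, adjusted p = 0.0246), a call lost without replicate number 8 or 11 and without ventral anterior 8 or 11 or ventral posterior 3 or 11. Unlike HOXD11 it had reads in every ventral-most and ventral posterior library.

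An entry without a symbol between HOXD10 and HOXD4 (17056223 to 17062110) was higher in dorsal skin (2.51, SE 0.24, adjusted p = 2.23e-06). Its mean was 109 ± 41.5 in dorsal anterior, 204 ± 35.5 in saddle and 315 ± 102 in dorsal posterior skin (SD, n = 3), with overlap between saddle and posterior libraries. Dorsal anterior against posterior skin was not called (-1.53, adjusted p = 0.0919) except with the replicate block (adjusted p = 0.0483). Beyond HOXD3, at 33.6 kb, lies MTX2, a gene of the mitochondrial outer membrane and no HOX gene. It too was called higher dorsally (0.76, SE 0.15, adjusted p = 0.00133; lost without replicate number 8), against 2.25 in HOXD3 and 2.43 in HOXD4.

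The balance between HOXD4 and HOXD3 shifted along the back. Within libraries, the ratio of the HOXD4 to the HOXD3 level was 3.30, 2.08 and 1.84 in dorsal anterior replicates 3, 8 and 11. It was 0.876 to 1.02 in the saddle and 0.574 to 0.81 in dorsal posterior skin. Each dorsal anterior library stood above all 6 others, with a log2 ratio higher by 1.51. An exact permutation test (two-sided) gave p = 0.0238, or 0.0357 adjusted over 6 ratio comparisons chosen after the values were seen. This is the smallest p that 3 against 6 libraries allow. It restates the separation that was already seen and adds no support to it. No difference of the ratio was detected between dorsal and ventral libraries (0.18 on the log2 scale, permutation p = 0.517, adjusted 0.62). On the belly the ratio was also higher in anterior (1.04 to 1.72) than in posterior skin (0.635 to 1.01). It was 0.925 to 1.18 in ventral-most skin and 0.75 to 1.5 in the flank. The belly locations were not tested against each other for this ratio.

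**Figure D4:**
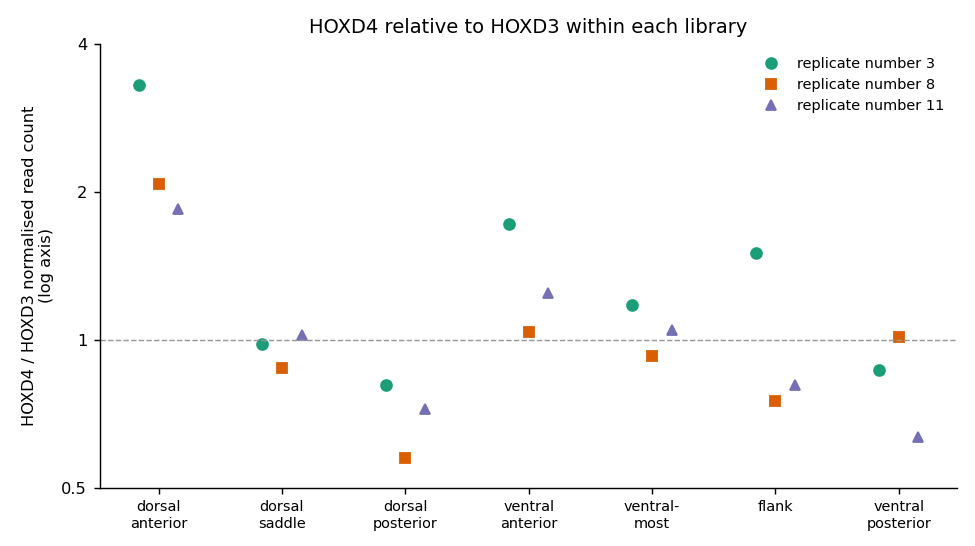
Ratio of the HOXD4 to the HOXD3 level within each library by location (log scale). The dorsal anterior libraries, at 1.84 to 3.30, lie above those of the saddle and the posterior back.

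Paralogues, the genes of the same group in other clusters, were compared with the HOXD members. HOXA3 did not pass the test of body side (-0.24, SE 0.09, adjusted p = 0.0965) and was highest in ventral anterior skin (4681 ± 842, SD, n = 3), where the mean of HOXD3 was lower than in any dorsal location. It was called higher anteriorly on the back (1.44, adjusted p = 0.000178; lost without replicate number 8) and on the belly (2.31, adjusted p = 1.24e-06). HOXB3 was called by limma in none of the 6 comparisons (any difference among locations, adjusted p = 0.821). The within-library log2 ratio of HOXD3 to HOXA3 was higher in dorsal libraries by 2.49, and 9 of 9 dorsal libraries stood above every ventral one (permutation test, two-sided, p = 6.8e-06, adjusted 4.08e-05). This ratio was chosen after the values were seen, and the permutation took the libraries as independent. Its p restates the separation and is a description only.

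HOXA4 also lacked a call between the sides (-0.18, SE 0.29, adjusted p = 0.753). It rose anteriorly on the back by 4.89 (SE 0.53, adjusted p = 7.87e-05) and on the belly by 2.32 (SE 0.53, adjusted p = 0.0316), where HOXD4 was not called. The belly call was lost when replicate number 3, 8 or 11 was left out, and without ventral anterior 3, 8 or 11 or ventral posterior 3 or 11. The ratio of HOXD4 to HOXA4 was higher in dorsal libraries by 2.61 on the log2 scale (permutation test, two-sided, p = 0.00015, adjusted 0.000449), and 6 of 9 dorsal libraries stood above all ventral ones. This permutation also took the libraries as independent, for a ratio chosen after the values were seen, so its p is a description only.

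HOXA11 differed from HOXD11 at the rear of the belly. It averaged 2259 ± 144 in dorsal posterior and 1262 ± 152 in ventral posterior skin (SD, n = 3), and 39.4 ± 11.3 in the flank. It was called lower anteriorly on the back (-10.33, SE 0.84, adjusted p = 4.74e-06) and on the belly (-9.78, SE 0.84, adjusted p = 2.53e-06), and was not called in the flank (1.53, SE 0.68, adjusted p = 0.332). From ventral posterior skin to the flank the mean level of HOXA11 thus went from 1262 to 39.4, while that of HOXD11 went from 1.37 to 155. No ratio of these genes is read here, because both had between 0 and 2 reads in each ventral anterior and ventral-most library.

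**Figure D5:**
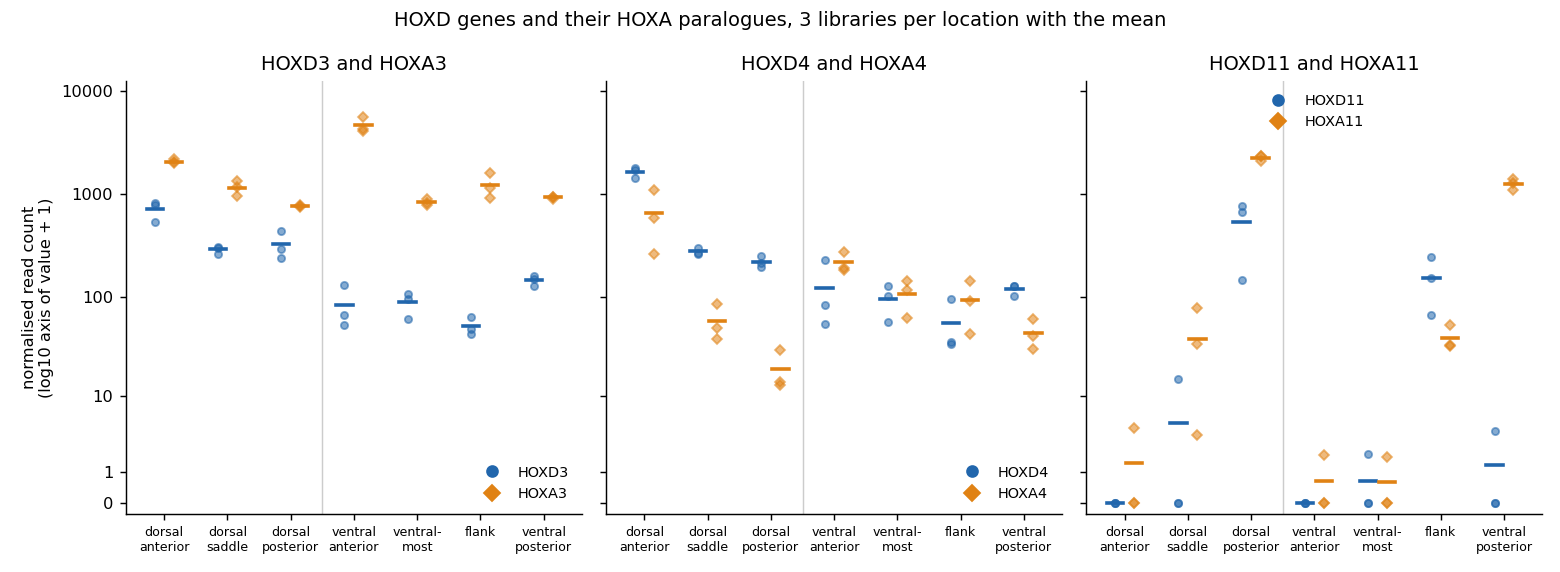
Levels of HOXD3, HOXD4 and HOXD11 beside those of HOXA3, HOXA4 and HOXA11 by location (normalised read counts plus 1, log scale, each point a library). HOXA11 is high in both posterior locations, and HOXD11 in dorsal posterior skin and the flank.

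Other HOX genes gave a background for these patterns. Of all genes, 2.27% were called along the back, 1.76% along the belly, 17.2% between the sides and 0.828% for the side-by-axis difference. Of 12 listed genes of groups 1 to 5 in other clusters 5 were tested, of which 3 (HOXA2, HOXA3, HOXA4) were called higher anteriorly on the back and on the belly, and 0 between the sides (2 at an unadjusted p below 0.05, 0 with edgeR, 1 with DESeq2 and 1 lower with the replicate block). On the belly the block also called 1 lower. Their median difference was 1.44 on the back and 2.31 on the belly, against 0.02 and 0.00 for all genes. Of groups 6 to 8, 5 of 7 were tested, with 5 called lower anteriorly on the belly, such as HOXB7 (-5.76) and HOXC6 (-3.97), and none on the back by limma, edgeR or DESeq2 or at an unadjusted p below 0.05. Their medians were -3.37 and -0.04. For the side-by-axis difference, 4 of these 5 were called higher (edgeR 3, the replicate block and DESeq2 4 each), namely HOXB7 (5.72), HOXC6 (4.36), HOXA6 (3.24) and HOXA7 (2.96), with a median of 3.24 against 0.00 for all genes. Of groups 1 to 5, limma and edgeR called 0 of 5 for that difference, while 3 were at an unadjusted p below 0.05, DESeq2 called 3 and the block 2 higher.

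Of groups 9 to 13, 4 of 11 were tested, namely HOXA9, HOXA11, HOXB9 and HOXC9, and all 4 were called lower anteriorly on both sides. Of all genes, 1.51% were called lower anteriorly on the back and 0.835% on the belly. The medians of these 4 genes were -6.14 on the back and -7.95 on the belly, where HOXD11 had -8.74 and -0.78. None of the 4 was called for a difference between the sides in this contrast by limma, while 2 were at an unadjusted p below 0.05 and edgeR, DESeq2 and the replicate block each called 1. In the flank, where 3.05% of all genes were called, HOXA9 was higher (3.55, adjusted p = 0.00114) and HOXB9 lower (-2.84, adjusted p = 0.0119). Of groups 6 to 8, 2 of 5 were called higher there (3 with the replicate block and with DESeq2). Of groups 1 to 5, 1 of 5 was called lower there (0 with edgeR). Between the sides, 1 of 5 of groups 6 to 8 was called higher dorsally, as were 9.31% of all genes. Of groups 9 to 13 it was 1 of 4 (0 with edgeR, 2 with DESeq2).

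Cofactors and regulators were counted from lists. Of 9 cofactors, which bind DNA together with HOX proteins, 3 were tested and PKNOX2 was called higher dorsally (0.80, SE 0.20, adjusted p = 0.0104), as were 9.31% of all genes. Of 19 axial regulators, genes of retinoic acid, FGF and WNT signalling and of the tail bud, 9 were tested. In the flank 5 of the 9 were called higher and none lower, with a median of 1.04 against 0.00 for all genes. Of all genes, 1.61% were called higher there and 1.44% lower. They were RXRG (4.55), ALDH1A1 (4.0), ALDH1A2 (3.09), TBXT (2.07) and RARB (0.74), of which the ALDH1A genes make retinoic acid and RARB and RXRG are its receptors. Of the same 9 genes RARA was higher anteriorly on the back (1.08, adjusted p = 0.0376), ALDH1A2 was higher anteriorly on the belly (4.11) and TBXT lower (-2.78). ALDH1A1 was lower dorsally (-5.65, adjusted p = 6.88e-06).

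Of 17 chromatin regulators of HOX clusters, Polycomb and Trithorax genes among them, 11 were tested and limma called 0 in each of the 6 comparisons. Over these comparisons, between 0.828% and 17.2% of all genes were called. Between the sides 1 was at an unadjusted p below 0.05, edgeR called 0, DESeq2 called 1 and the replicate block 1 higher and 1 lower. In the 5 other comparisons limma at an unadjusted p below 0.05, edgeR and DESeq2 gave 0. The median difference between the sides was 0.03, against 0.00 for all genes.

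Genes with a like pattern were ranked by Pearson's r of log2(level + 1) over the 21 libraries, among 7970 other tested genes with a symbol, as a description. HOXD3 was most like HOXD4 (r = 0.94), followed by WNT6 (0.93), STON2 (0.93), CYP2W1 (0.92) and KTN1 (0.91). HOXD4 was most like HOXD3 (0.94), WNT6 (0.92), STON2 (0.91), ITGA6 (0.87) and CYP27A1 (0.87). WNT6 is a secreted signal of surface ectoderm and ITGA6 the integrin of the basal epidermal layer. HOXD11 had looser matches among genes with a symbol, with LRRTM4 (0.76), SUSD4 (0.74), MAFA (0.73), PCNA (0.72) and TRPC7 (0.7). Of the entries without a symbol, which were not ranked, 2 had a higher r with HOXD11 than LRRTM4. For HOXD4, 1 such entry stood above WNT6. MAFA and TRPC7 had few reads, 192 and 122 in all, each in 10 libraries. The libraries share location, body side, replicate number and epidermal content, so these values carry no test.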

How the data were processed

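Skin RNA of 21 libraries was measured. Per the labels' protocols, 10 ng of total RNA was amplified with SMART-Seq v4 and about 150 pg of cDNA went into Nextera XT libraries. The deposited signal values are labelled as gene expression normalised with DESeq2, and were taken as reads per gene scaled by library size factors. STAR 2.4.0, SAMtools, Picard, FastQC and DESeq2 are named in the submitters' processing notes. No read counter, genome build or annotation is given in the sources used here.

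Every value was a whole multiple of its library's step (0.784 to 1.37). Dividing by the step gave whole reads for 100% of values, within 0.01 reads. These recovered reads served edgeR 4.0.16 (TMM) and DESeq2 1.42.0 as alternatives, and are amplified copies rather than independent molecules. Overlapping transcripts on the opposite strand cannot be told apart where counting ignored strand, and the strand setting was not stated.

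Symbols came from a RefSeq gene table (bTaeGut7.mat, names only) by Entrez identifier (8122) or from the deposited name (424, HOXD4 and HOXD13 among them). A row named Hox-D9 in the deposited table lies on chromosome 27 and is HOXB9 by Entrez, and it was treated as such. Of the other rows of the cluster, those within 300 kb are described as neighbours.

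limma 3.58.1 (R 4.3.3, trend, robust) tested log2(value + 1) in a single fit of 7 locations, with Benjamini-Hochberg adjustment over 14005 genes. The fit was also run on simulated counts, drawn independently for each library. That run lacked the pairing by number described next, and no support for the calls is drawn from it. Libraries of the same number deviated together in 63 of 63 pairs (correlation 0.272 to 0.529, median 0.425, against a threshold of 0.1), so the numbers pair them, as the data show. The fit with the replicate number as a block is given where it changes a call or a list count that the text states.

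Genes named are the 3 members, entries within 300 kb, paralogues of groups 3, 4 and 11, up to 4 called members of each list and comparison (5 in the flank, where the last were tied in adjusted p), and the 5 genes with the highest correlation. Members and lists were chosen with earlier results of these data known, and the within-library ratios after the values were seen. Other alternatives were the added constant, the low-value filter, quantile normalisation, the libraries compared alone, and leaving out libraries, replicate numbers or the flank.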

Additional observations from a re-analysis of the deposited data

Results flagged for a closer look

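All 3 HOXD genes, taken by symbol, were flagged because their anterior-posterior difference on the back differed from that on the belly by a test of the difference itself. For HOXD3 the value was 2.05 on the log2 scale, made of a dorsal difference of 1.16 and a ventral one of -0.89 (limma, adjusted p = 0.0438). For HOXD4 it was 3.13, from 2.90 and -0.23 (adjusted p = 0.022). For HOXD11 it was -7.96, from -8.74 and -0.78 (adjusted p = 0.0105), and there both anterior locations had 0 reads. With the replicate block the adjusted p was 0.0221, 0.00354 and 0.00554. Epidermal marker levels fell from the front to the rear of the back. On the belly their sums were 9101 to 13398 in anterior and 14469 to 18463 in posterior skin. For the side-by-axis difference 1 of 6 epidermis markers was called higher by limma, against 0.35% of all genes. Their median was 0.85, against 0.00 for all genes. The part of these markers in the flagged values was not tested.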

How the results depend on the processing

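Among the planned contrasts, the difference among the locations for all 3 genes, dorsal against ventral for HOXD3 and HOXD4, and dorsal anterior against posterior and flank against the other ventral locations for HOXD11 kept direction and call under every alternative run. Single pairs of locations did not all do so. Calls of the side-by-axis difference were the least stable. Low HOXD11 reads and 3 libraries per location limit the rest. With HOXD11 below the low-value filter, the anterior-posterior comparison of the belly could not be fitted on its libraries alone, and its pairs of locations were not counted that way.

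Without a call before, HOXD11 passed between the sides with 5 added (1.05) and without the flank (2.92), where 6 ventral reads remained. HOXD3 passed between anterior and posterior back with DESeq2 (1.14) and with the replicate block (1.16), and in the flank likewise (-0.99 and -0.94). HOXD4 passed in the flank with the block (-1.04). The belly difference of HOXD4 turned positive with edgeR (0.028), DESeq2 (0.024), without replicate number 8 (0.26) and without ventral anterior replicate 8 (0.21). The side-by-axis call was lost for HOXD3 with edgeR (1.94), no filter (2.05), quantile normalisation (2.08) and the libraries alone (2.05), for HOXD4 with the libraries alone (3.13), and for HOXD11 with edgeR (-8.39) and DESeq2 (-8.77). DESeq2 called 6 pairs for HOXD11. The cause of these changes was not tested. The HOXD11 to HOXA11 ratio between the sides (-0.09; 0.45, -0.88 and 0.16 without replicate numbers 3, 8 and 11) is void, since several libraries had few or no reads of both genes.

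Genes called among all locations numbered 2152 (3462 with DESeq2, 4208 with the replicate block), between the sides 2409 (4084 with the block) and along the back 318 (598, 740, and 142 on those libraries alone). Along the belly there were 246 (499, 589, 39), for the side-by-axis difference 116 (380, 411, 34) and for the flank 427 (774, 1021, 245).

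With a library or replicate number left out, the values ranged as follows. Among all locations they were 3.57 to 4.12 for HOXD3, 4.78 to 5.5 for HOXD4 and 8.31 to 9.50 for HOXD11. Between the sides they were 1.96 to 2.55, 2.17 to 2.76 and 0.61 to 1.89. Along the back they were 0.96 to 1.40, 2.75 to 3.0 and -9.50 to -8.31, and along the belly -1.28 to -0.62, -0.82 to 0.26 and -1.18 to 0.00. The side-by-axis difference ran from 1.75 to 2.44, 2.69 to 3.72 and -9.50 to -7.14. In the flank the ranges were -1.11 to -0.80, -1.51 to -0.78 and 6.02 to 7.21. Pairs called ran from 6 to 14, 4 to 12 and 5 to 10. Gene counts were 252 to 2184 among locations, 822 to 2453 between sides, 26 to 365 along the back, 25 to 303 along the belly, 0 to 148 for the side-by-axis difference and 21 to 481 in the flank.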

Other observations

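Several of the genes most like HOXD4 lie on its chromosome. Of the 5 genes nearest to HOXD4 by correlation 4 were on chromosome 7, and of the 5 nearest to HOXD3 and HOXD11 there were 2 and 0, where 3.63% of genes with a symbol lie on that chromosome. Among the 50 nearest the numbers were 6, 6 and 3. The counts for HOXD3 and for HOXD4 each include the other of these genes. WNT6 and CYP27A1 are near neighbours of each other, at 10265488 to 10277806 and 10252878 to 10255810, and ITGA6 lies at 15382315 to 15423030, all outside the HOXD neighbourhood. These numbers are a description and carry no test.

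The marker lists not named beside a result held low or uneven levels. Skeletal muscle markers (7 of 9 in the table) summed to between 22 and 2313 per library, with the highest values in ventral anterior skin (1151 to 2313). Cartilage markers (4 of 6) summed to between 409 and 1522, and mesothelium and kidney markers (3 of 6) to between 52.9 and 821. Gut and cloaca endoderm markers (5 of 7) summed to at most 19.4, in saddle replicate 8, and CDX2 was at 0 in all 21 libraries.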
